A study of Mus musculus with 15 samples.

Results

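The T cell receptor alpha chains of CD8+ T cells taken from prostate tumours were compared with those of memory-phenotype (MP) CD8+ T cells from lymphoid organs. All 5 tumour libraries of the series (Tumour 1 to 5) were set against all 5 MP libraries (MP 1 to 5), which are 10 of its 15 libraries. The other 5 libraries, of naive CD8+ T cells, served only as a reference. Every mouse was a male on a C57BL/6 background that carried TCRbtg, a transgene that fixes the beta chain of the receptor. MP cells were sorted as CD8b+ CD4neg CD44hi CD122+ from spleen and lymph nodes pooled within a mouse, at an age of 9 weeks. Naive cells were the CD44lo CD122neg fraction of mice of the same age. Tumour cells came from TRAMP+/- TCRbtg males of 27 weeks and were sorted as CD8b+ CD4neg, with no gate on CD44 or CD122. TRAMP mice express a viral oncogene from a prostate-specific promoter and develop prostate tumours. Tissue, age, TRAMP genotype and sort gate all changed between the tumour and MP groups and cannot be told apart.

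A T cell receptor is a pair of an alpha and a beta chain. With the beta chain fixed, the cells of these mice differ mainly in the alpha chain, above all in its CDR3, the hypervariable loop that touches the presented peptide. The loop starts in a variable segment (TRAV), ends in a joining segment (TRAJ), and holds in between a junction that varies from cell to cell. MP cells carry memory markers without deliberate immunisation, and the title of the series concerns self-specific MP cells and their thymic precursors. The comparison asks which loops of MP cells are also those of T cells in tumours.

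The files give the number of reads per CDR3 peptide, written without the conserved residues at both ends of the loop. Tumour libraries held 627205 to 943699 reads and MP libraries 574484 to 881988. Tumour libraries listed 934 to 2657 different CDR3s and MP libraries 2216 to 13950, with MP 1 and MP 5 far above the other MP lists at 12401 and 13950. Each list starts at 2 reads, so an unlisted CDR3 had fewer. Shares are percentages of a library's reads. A CDR3 that a group does not list was set at 3 reads per library for a lower bound on a ratio, which is a mean share of 0.000390% in Tumour and 0.000438% in MP libraries. Reads are products of a multiplex PCR and not independent molecules, so such bounds cover counting error only. Nothing in the labels gives the number of cells sorted. The lists hold alpha CDR3s alone, so the sorted cell types cannot be checked against marker genes.

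The loops that carry the contrast are shown first. These 10 CDR3s led the tumours by mean share, out of those that reached 10 reads in 3 or more tumours:
Tumour leader 1: AARPPRYGNEKIT
Tumour leader 2: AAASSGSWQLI
Tumour leader 3: AASASNTNKVV
Tumour leader 4: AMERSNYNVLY
Tumour leader 5: AASATNAYKVI
Tumour leader 6: AGGKEGKLI
Tumour leader 7: AASPSNTNKVV
Tumour leader 8: AVRFGGGYKVV
Tumour leader 9: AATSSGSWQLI
Tumour leader 10: AASAANTNKVV

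The 10 CDR3s with the highest mean share in MP libraries among those tested were the following, where the second, of 12 residues with the start AAD and the end TGKLT, is not spelled out.
MP leader 1: ALGSSNTNKVV
MP leader 3: ALASSNTNKVV
MP leader 4: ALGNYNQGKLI
MP leader 5: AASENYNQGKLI
MP leader 6: AMASSNTNKVV
MP leader 7: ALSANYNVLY
MP leader 8: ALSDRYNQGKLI
MP leader 9: APSNSGTYQR
MP leader 10: AASNTGNYKYV

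No CDR3 stood on both sets of leaders. The 10 tumour leaders together took 30.2, 35.2, 22.8, 27.8 and 22.4% of the reads of Tumour 1 to 5 and 0.299 to 0.389% of the reads of the MP libraries. The 10 MP leaders took 20.8 to 27.1% of MP reads and 0.00429, 0.251, 0.0898, 0.0841 and 0.105% of the reads of Tumour 1 to 5. Because these loops were picked for being abundant in one of the groups, the sums describe them and are no test. In such bulk libraries, fewer cells with a given receptor and less receptor RNA per cell cannot be told apart.

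Of 1666 CDR3s that reached 10 reads in 3 or more of the 10 libraries, tumours had 128 at a higher and 1100 at a lower share than MP (edgeR quasi-likelihood test, Benjamini-Hochberg adjusted p under 0.05). That is 7.68% and 66.0% of those tested, and it is the background for every count below. All 10 tumour leaders were among those called higher and all 10 MP leaders among those called lower. Of the 1100 lower CDR3s, 979 were listed in no tumour, and of the 128 higher ones 79 were listed in no MP library. A CDR3 listed in a single group entered the test only through that group, so these counts describe how little the lists share and are not separate support. The same holds for the adjusted p given below for such loops. Leaders were moreover picked for a high share in a group, so their adjusted p describe them and are no independent test. In tumours the higher CDR3s summed to 44.3 ± 5.80% and the lower ones to 0.204 ± 0.245% of the reads, against 0.374 ± 0.0498% and 63.7 ± 1.92% in MP (SD, n = 5 each). The counts moved with single libraries, and so did the number tested. Higher were 81 of 1533 without Tumour 2 and 84 of 1595 without Tumour 4. Lower were 572 of 1048 without MP 1 and 587 of 1086 without MP 5. Without MP 1 and MP 5 together, 68 were higher and 225 lower of 642 tested.

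**Figure D1:**
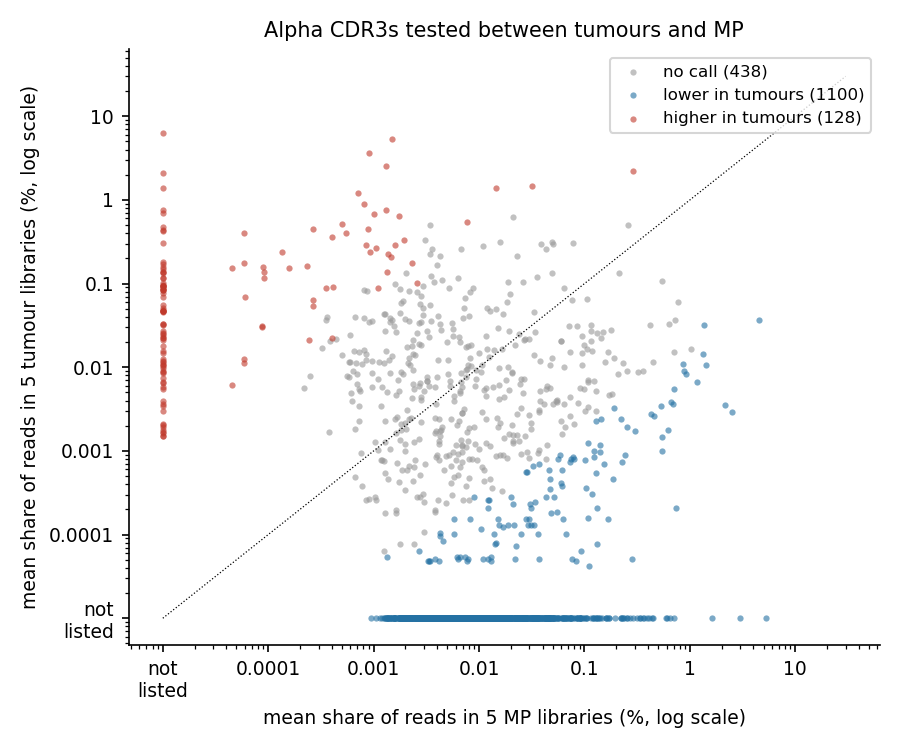
Mean share of reads in the 5 MP libraries (x axis, %, log scale) against that in the 5 tumour libraries (y axis, %, log scale) for each of the 1666 CDR3s tested; colours give the edgeR call, the dotted line marks equal shares, and CDR3s that a group does not list stand at its "not listed" mark. The 128 higher CDR3s lie to the upper left, 79 of them unlisted in MP, and 979 of the 1100 lower ones lie on the bottom edge.

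AARPPRYGNEKIT, whose end is that of TRAJ48, was the tumour loop with the highest mean share, and it varied widely between tumours. It took 0.0109, 14.5, 3.04, 14.2 and 0.148% of the reads of Tumour 1 to 5 and was listed in no MP and no Naive library. It ranked first in Tumour 2 and second in Tumour 4, against 518 in Tumour 1. Its mean tumour share was at least 14569-fold that in MP (edgeR adjusted p = 0.0103), and it entered the test through tumours alone. Tumour 3 had as its own most abundant CDR3 the loop AGRPPRYGNEKIT, at 4.19%, which has the same length and end. That loop was otherwise listed only in Tumour 4, at 0.000611%.

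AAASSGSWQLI, which ends as TRAJ22 does, made up 10.0, 9.35, 4.10, 2.48 and 0.848% of the reads of Tumour 1 to 5. Among MP libraries it was listed in MP 3 at 0.000299% and in MP 5 at 0.00716%. The tumour mean was 3592-fold the MP mean (edgeR adjusted p = 0.0107), with every tumour above every MP library.

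AASASNTNKVV, with a TRAJ34 end, was the steadiest of the tumour leaders. Tumour 1 to 5 held it at 3.62, 3.51, 3.99, 4.50 and 2.35%, where its rank was 3 or 6. MP 5 was the sole MP library that listed it, with 31 reads or 0.00453%, and no Naive library did. The ratio of the means was 3966 (edgeR adjusted p = 0.0107).

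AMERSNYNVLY, which ends as TRAJ21 does, stood at 0.225, 0.405, 2.04, 0.550 and 9.47% in Tumour 1 to 5. Its highest MP share was 0.00425%, in MP 2, and its ratio of means was 1923 (edgeR adjusted p = 0.0107). Most of its reads came from Tumour 5.

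Of the remaining tumour leaders, AGGKEGKLI and AVRFGGGYKVV were listed in 3 tumours each and in no MP library, so that the groups overlapped at 0. AGGKEGKLI took 5.01, 0.797 and 4.83% of the reads of Tumour 1, 3 and 5, at least 4857-fold the MP level (edgeR adjusted p = 0.0152). AVRFGGGYKVV took 5.88, 0.0154 and 1.13% in Tumour 1, 2 and 3, at least 3207-fold (edgeR adjusted p = 0.0170). Without MP 1 and MP 5 together, their adjusted p rose to 0.0704 and 0.0796. AASAANTNKVV was listed in every tumour at 0.163 to 2.06% and in MP 1 and MP 5 at up to 0.00263%. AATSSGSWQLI, at 0.263 to 2.17% in tumours, was listed in MP 3 alone at 0.0717%. Its call was near the threshold (edgeR adjusted p = 0.0473) and was lost in 12 of 17 alternatives, among them the scaling by TMM (adjusted p = 0.0820) and the fits without any single tumour or without MP 1, 2, 4 or 5.

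ALGSSNTNKVV led MP 2, MP 3 and MP 5 and made up 4.75, 5.33, 6.59, 5.82 and 4.08% of the reads of MP 1 to 5. It has the same TRAJ34 end as the tumour leader AASASNTNKVV and was listed in no tumour, which puts its tumour share at least 13618.5-fold lower (edgeR adjusted p = 0.0101). ALASSNTNKVV at 2.34 to 4.12% and AMASSNTNKVV at 1.19 to 2.16% of MP reads, with the same end, were also listed in no tumour. Their bounds were at least 7656-fold and at least 4147-fold (edgeR adjusted p = 0.0101 each).

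MP leader 2, the AAD loop with the TGKLT end, which led MP 1 and MP 4 at 4.90 and 6.27%, was listed in Tumour 2, 3 and 4 at 0.125, 0.0112 and 0.0452%. Its mean was 125-fold lower in tumours (edgeR adjusted p = 0.0183). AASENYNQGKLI and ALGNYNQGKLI, both with a TRAJ23 end, took a mean of 2.13 and 2.53% of MP reads and at most 0.0179 and 0.0143% of a tumour, in both cases Tumour 4. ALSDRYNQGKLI, with the same end, was the MP leader found in most tumours: it stood at 0.00429, 0.0103, 0.0719 and 0.0756% in Tumour 1, 2, 3 and 5 against 1.18 to 1.70% in MP. The other MP leaders, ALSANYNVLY, APSNSGTYQR and AASNTGNYKYV, had their highest tumour share in Tumour 2, at 0.0465, 0.0357 and 0.0338%. Without MP 1 and MP 5 together, the adjusted p of MP leader 2, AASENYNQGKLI, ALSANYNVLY, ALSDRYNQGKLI, APSNSGTYQR and AASNTGNYKYV lay between 0.0525 and 0.0808. AASNTGNYKYV also missed the threshold with TMM scaling (edgeR adjusted p = 0.0574).

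Few loops had a sizeable mean share in both groups. The 5 CDR3s whose lower group mean was the largest are shown as those nearest to being shared, although AASATNAYKVI alone of them was listed in all 10 libraries:
Shared loop 1: AASATNAYKVI
Shared loop 2: APYQGGRALI
Shared loop 3: ALGASNTNKVV
Shared loop 4: AITGYQNFY
Shared loop 5: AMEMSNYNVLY

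AASATNAYKVI, which ends as TRAJ30 does, was the tumour leader with the highest mean share in MP, 0.289%. It took 1.39, 2.33, 2.32, 2.98 and 2.08% of the reads of Tumour 1 to 5 and 0.318, 0.303, 0.264, 0.347 and 0.212% of those of MP 1 to 5. It ranked from 4 to 14 in tumours and from 42 to 66 in MP libraries, while its mean share in Naive libraries was 0.000260%. All tumours lay above all MP libraries, and the mean was 7.68-fold higher (log2 fold change 2.94 ± 1.13, SE; edgeR adjusted p = 0.0304). Among the fits without a replicate block, the call was lost with TMM scaling (adjusted p = 0.201) and when no filter on low counts was set (adjusted p = 0.163), and the direction held in all 17 alternatives.

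The other 4 shared loops did not pass the test in either direction. APYQGGRALI took 0.363, 0.719, 0.377, 1.07 and 0% of the reads of Tumour 1 to 5 and 0.161, 0, 0.772, 0.293 and 0.0797% of MP 1 to 5, with groups that overlap (log2 fold change 0.96 ± 1.98, SE; edgeR adjusted p = 0.670). AITGYQNFY was listed in Tumour 1, 2 and 4 at 0.0990, 0.353 and 0.0876% and in every MP library at 0.278 to 1.07% (edgeR adjusted p = 0.298). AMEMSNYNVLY stood at 0.0636, 0.944, 0.0514 and 0.486% in Tumour 1, 2, 4 and 5 and at 0.0178 to 0.110% in MP (edgeR adjusted p = 0.316). ALGASNTNKVV, a relative of the first MP leader by its TRAJ34 end, was found in Tumour 2 alone at 0.675% and in every MP library at 0.108 to 0.481%. Without Tumour 2 it was called lower in Tumour (edgeR adjusted p = 0.00384), against 0.825 with it.

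Besides AASATNAYKVI, 4 CDR3s called higher in Tumour were named for being listed in at least 3 MP libraries. They were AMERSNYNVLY, AASPSNTNKVV, AASAANAYKVI and AASSSNTNKVV. AASPSNTNKVV took 0.884, 1.74, 2.76, 1.25 and 0.769% of the reads of Tumour 1 to 5 and was listed in 4 MP libraries at up to 0.0708%, a ratio of 46.2 (edgeR adjusted p = 0.0183; with TMM 0.0631). AASAANAYKVI reached 2.27% in Tumour 4 and 0.783% in Tumour 5 and stayed at 0.0992% or below in the other tumours. In MP it was listed in every library, at no more than 0.00380%. AASSSNTNKVV took 0.606 to 0.728% in Tumour 1 to 4 and 0.0588% in Tumour 5, against at most 0.0192% in MP, a ratio of 71.7 (edgeR adjusted p = 0.0183, and 0.0897 without MP 1 and MP 5 together). The 5 loops together took 3.12, 5.21, 7.91, 7.70 and 13.2% of the reads of Tumour 1 to 5 and 0.265 to 0.397% of MP reads.

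Each tumour had a different most abundant CDR3, whereas 2 loops led the 5 MP libraries. The loops that led the tumours are shown because 4 of the 5 had nearly all their tumour reads in 1 library, AARPPRYGNEKIT being the other:
Tumour 1: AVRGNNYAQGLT
Tumour 2: AARPPRYGNEKIT
Tumour 3: AGRPPRYGNEKIT
Tumour 4: ATASSNMGYKLT
Tumour 5: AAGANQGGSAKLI

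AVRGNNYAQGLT made up 14.7% of Tumour 1 and was listed in no other tumour, ATASSNMGYKLT made up 20.8% of Tumour 4 alone, and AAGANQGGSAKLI made up 22.6% of Tumour 5 and was listed with 6 reads in Tumour 4. In MP, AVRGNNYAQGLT was listed with 23 reads in MP 1 and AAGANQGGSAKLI with 11 reads in MP 5. These 3 loops and AGRPPRYGNEKIT were in too few libraries to enter the test, which asks for 10 reads in 3 libraries. CDR3s listed in a single tumour took 35.3 ± 8.18% of tumour reads (SD, n = 5), whereas those listed in a single MP library took 12.2 ± 1.04% of MP reads. At the other end, 70 CDR3s were listed in all 5 tumours and took 35.3 ± 9.24% of their reads, and 483 were listed in all 5 MP libraries and took 65.8 ± 1.39%.

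The number of CDR3s needed to reach 50% of the reads was 9, 19, 25, 8 and 8 in Tumour 1 to 5 and 61, 71, 56, 59 and 56 in MP 1 to 5. The tumour mean was lower by 46.8 CDR3s (exact two-sided permutation test, p = 0.00794, the smallest that 5 against 5 libraries allow). Shannon entropy of the read shares differed by -2.46 bits (exact permutation p = 0.00794). Tumour lists held a larger part of near copies, which differ by 1 residue from a CDR3 with 100 or more times their reads in that library. Near copies were 28.8 to 69.0% of the CDR3s listed in a tumour and 7.51 to 30.6% of those in an MP library. Their part of the reads was 0.923 to 1.45% in tumours and 0.509 to 1.34% in MP libraries, and with them folded into their parents the difference was -44.2 CDR3s and -2.49 bits (exact permutation p = 0.00794 each).

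Tumours shared many names with MP libraries, but the loops abundant in MP took a small part of tumour reads. The 100 CDR3s of highest mean share in MP, picked for that share, took 55.2% of MP reads and 2.20 to 5.59% of tumour reads. Of the 6146 CDR3s listed in tumours, 1581 or 25.7% were listed in at least 1 MP library, and these are 6.21% of the 25439 CDR3s listed in MP. By reads, 61.2, 56.7, 57.4, 37.1 and 59.9% of Tumour 1 to 5 lay in CDR3s that some MP library listed, at whatever level. Naive libraries listed 1220 of the 1581 as well. CDR3s listed in MP and not in Naive took 11.6, 9.70, 8.08, 7.41 and 4.29% of the reads of Tumour 1 to 5, those in Naive and not in MP took 9.28 to 16.6%, and those in neither took 27.4, 32.2, 29.3, 53.6 and 23.5%. Tumour 4, which is led by ATASSNMGYKLT, had the largest part in neither. The lists of the groups differ in length, so the size of these parts moves with the number of CDR3s a group lists.

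**Figure D2:**
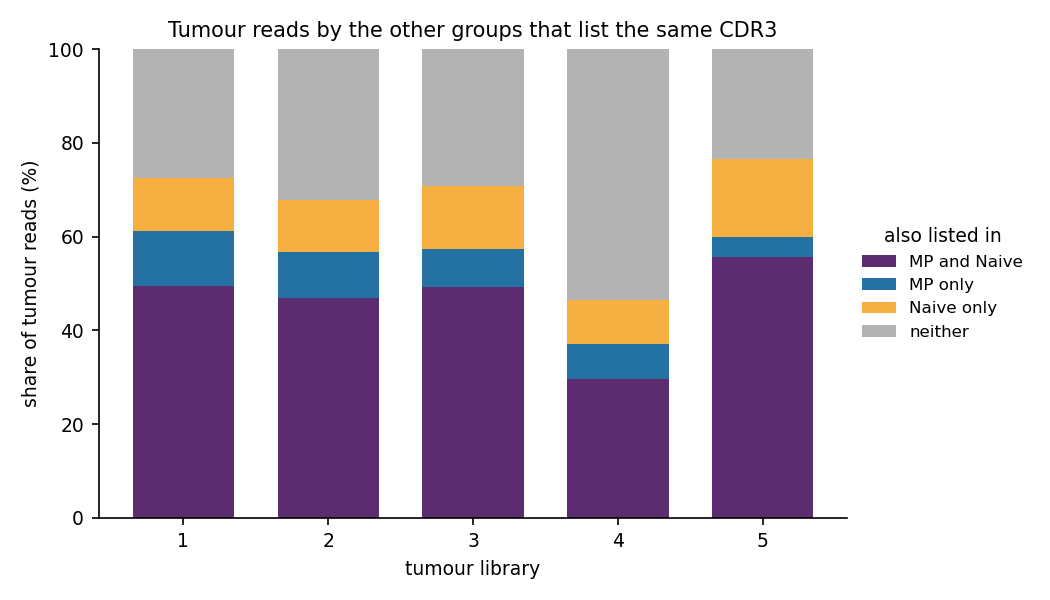
Stacked bars of the share of reads (y axis, %) of each tumour library (x axis) in CDR3s that are also listed in MP and Naive, in MP only, in Naive only, or in neither. The part found in MP and Naive is between 29.7 and 55.6% of the reads, and Tumour 4 has the largest part in neither, 53.6%.

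The recurrent core of the MP repertoire took a small part of tumour reads. Of the 483 CDR3s listed in all 5 MP libraries, Tumour 1 to 5 listed 33, 159, 23, 49 and 18. At least 1 tumour listed 202 of the 483, or 41.8%, against 6.21% of all CDR3s listed in MP. By listing, core loops were thus found in tumours more often than MP loops at large. In Tumour 1 to 5 this core summed to 2.31, 8.62, 3.82, 6.50 and 4.08% of the reads, against 65.8% in MP. Tumour 2 stood apart by listing 159 of them, with a median share of 0.00449%, and 12 at 0.1% or above. Its list was also the longest of the tumours, with 2657 CDR3s against 934 to 1516 in the others. Part of the sum in every tumour was AASATNAYKVI, whose 1.39 to 2.98% was the highest share of any core loop in each of Tumour 1 to 5. In the other direction, the 70 CDR3s listed in all 5 tumours summed to 0.396 to 0.477% of MP reads.

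The make-up of the libraries was compared by the Morisita-Horn index, an overlap of read shares that runs from 0, nothing in common, to 1. MP libraries were alike, at 0.876 to 0.952 over their 10 pairs, and tumours were not, at 0.0484 to 0.497. The mean within tumours was lower by 0.696 than that within MP (exact two-sided permutation test, p = 0.00794). Tumour 2 was the most connected: its index was 0.497 with Tumour 4, 0.476 with Tumour 3 and 0.313 with Tumour 1. Tumour 5 had the lowest values, 0.0484 to 0.121. Pairs within a group exceeded pairs between tumours and MP, which lay between 0.00229 and 0.0146, by 0.560 on average (exact one-sided permutation test, p = 0.00794).

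**Figure D3:**
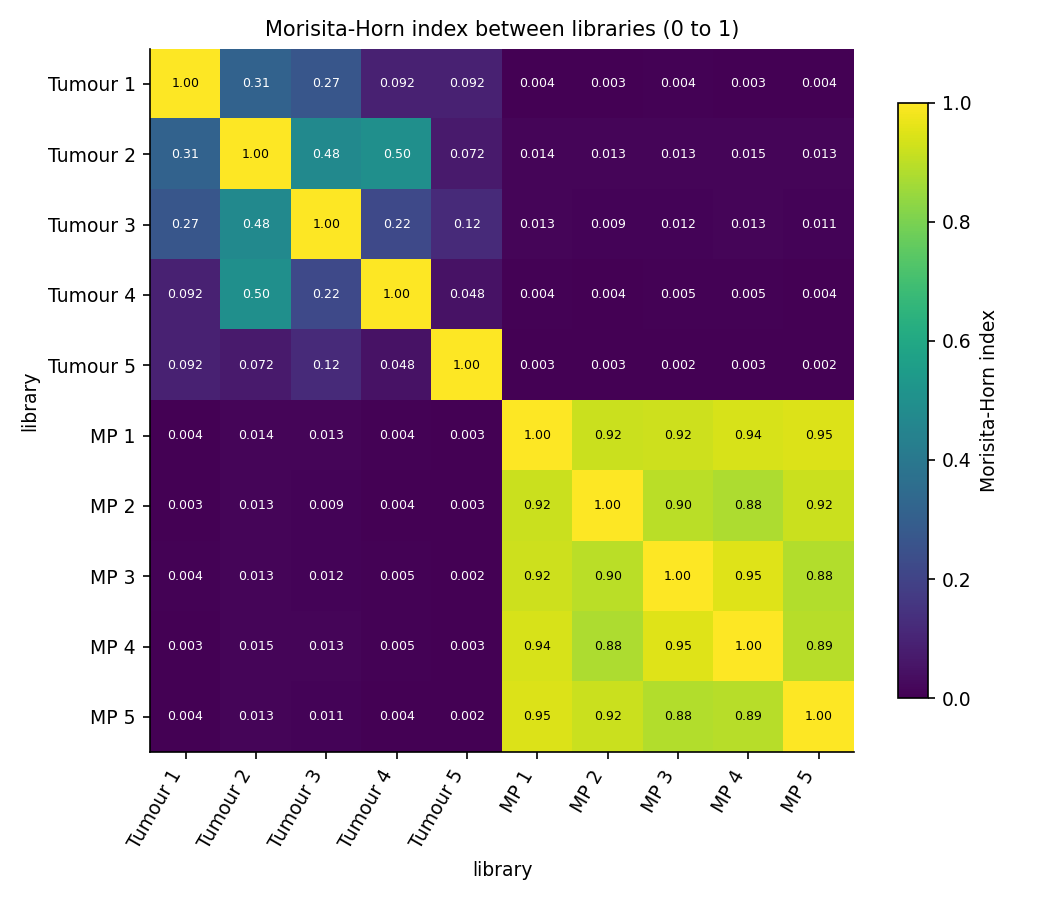
Heat map of the Morisita-Horn index for each pair of the 10 libraries (both axes list the libraries; colour scale from 0 to 1, with the value printed in each square). MP pairs lie at 0.876 to 0.952, tumour pairs at 0.0484 to 0.497, and tumour-to-MP pairs at or below 0.0146.

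Tumour read shares lay slightly nearer to MP than to Naive libraries, both at a low level. The mean index of Tumour 1 to 5 with MP was 0.00359, 0.0136, 0.0115, 0.00443 and 0.00254, and with Naive 0.000995, 0.00286, 0.00634, 0.000810 and 0.000799. In each tumour the lowest index with an MP library was above the highest with a Naive library. The mean difference was 0.00477 (exact two-sided permutation over MP and Naive labels, p = 0.00794). Tumours were held fixed in it, so the p measures the spread among MP and Naive libraries and not that between tumours. For scale, MP and Naive libraries had a mean index of 0.0578 with each other.

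Several tumour leaders came with relatives that differ by 1 residue and were themselves found in several tumours. Among CDR3s that reached 10 reads in 3 or more tumours, AASASNTNKVV had 16 such neighbours, 9 of them differing at position 4. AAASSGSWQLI had 12, AASATNAYKVI had 9 and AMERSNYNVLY 8. AARPPRYGNEKIT had 4, none above 0.00296 of its own share in the same tumour, and AVRFGGGYKVV had none. Many of the relatives of the other leaders were far too abundant to be near copies as defined above. AAISSGSWQLI took 2.47% of Tumour 2, ADASSGSWQLI 2.56% of Tumour 1, and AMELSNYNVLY 1.42 and 1.63% of Tumour 2 and 3, where it was 3.52 times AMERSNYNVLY in Tumour 2.

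When 1 position was allowed to vary, the loops around each leader could be summed in both groups. These patterns were chosen after the values were seen and carry no test. Loops that match AASASNTNKVV at all but position 4 took 5.67, 7.20, 7.68, 7.04 and 3.74% of Tumour 1 to 5 in 15 different CDR3s, and 0.0801 ± 0.0604% of MP reads (SD, n = 5) in 14. With position 4 of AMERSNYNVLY open, the share was 0.520, 3.55, 5.11, 0.968 and 11.0% in Tumour 1 to 5 and 0.166 ± 0.0251% in MP. Loops like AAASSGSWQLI with position 3 open took 13.1, 14.2, 5.11, 2.88 and 2.72% of Tumour 1 to 5, 0.0335 ± 0.0679% of MP and 0.733 ± 0.0994% of Naive reads. Around AASATNAYKVI the share was 2.65 to 4.42% in tumours, 0.449 ± 0.0708% in MP and 0.922 ± 0.146% in Naive libraries. In Naive libraries the central loop itself was at 0.000260%, so other members made up that sum.

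The joining ends of the loops differed between the groups. Reads were grouped by the last 5 residues, which the joining segment encodes, and segments are named from general knowledge. Of 32 ends with a mean share of at least 0.5%, 3 or 9.38% were higher and 7 or 21.9% were lower in Tumour (exact two-sided permutation tests, Benjamini-Hochberg adjusted p = 0.0254 for each). All 10 had tumour and MP libraries that did not overlap, which the smallest exact p that 5 against 5 libraries allow already implies. Each call was lost without Tumour 2 or without MP 1, 3, 4 or 5 (adjusted p = 0.0508 in each), where 4 against 5 libraries allow no exact p below 0.0159. Directions were kept in those fits. Without Tumour 1, 6 ends were higher.

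The end SWQLI of TRAJ22 showed the largest gain. It took 22.2, 20.5, 7.21, 5.29 and 4.58% of the reads of Tumour 1 to 5 and 2.04 to 3.10% of MP reads, a mean difference of 9.60 percentage points. Its 527 listings in tumours spread over many CDR3s. When each CDR3 was counted once, the end stood at 6.52 ± 2.85% in tumours and 2.37 ± 0.682% in MP (SD, n = 5 each). Near copies as defined above were not folded in this or the later counts by CDR3. They were 28.8 to 69.0% of a tumour list and 7.51 to 30.6% of an MP list. The end AYKVI of TRAJ30, that of AASATNAYKVI, took 6.33, 11.4, 11.2, 12.8 and 8.05% in Tumour 1 to 5 and 2.98 to 4.52% in MP. Counted by CDR3 it made up 10.1 ± 1.45% of tumour and 5.11 ± 0.893% of MP lists. The end NYQLI of TRAJ33 was rare in both groups, at 0.724 to 1.06% in tumours and 0.350 to 0.588% in MP, and by CDR3 it missed the threshold (adjusted p = 0.180).

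The end QGKLI of TRAJ23, that of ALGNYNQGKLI and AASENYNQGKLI, showed the largest loss. It took 12.5 to 16.3% of MP reads and 1.31, 1.34, 4.17, 2.02 and 1.62% of Tumour 1 to 5, a mean difference of -12.1 percentage points. By CDR3 it was also lower, at 3.89 ± 0.445% in tumours and 7.15 ± 0.685% in MP. The end TGKLT of TRAJ52 and TRAJ27, that of MP leader 2, took 6.62 to 9.99% in MP and 0.817 to 4.12% in tumours. Smaller ends in the same direction were LGKLQ of TRAJ24 (3.57 ± 0.517% in MP, 1.16 ± 0.488% in tumours), GTYQR of TRAJ13 (2.45 ± 0.528% and 0.118 ± 0.127%), NNAPR of TRAJ43 (2.48 ± 0.275% and 0.861 ± 0.605%) and TGKLI of TRAJ37 (1.60 ± 0.251% and 0.602 ± 0.348%). Of these, TGKLT missed the threshold without the most abundant CDR3 of each library (adjusted p = 0.0957). Counted by CDR3, NNAPR and TGKLI missed it (adjusted p = 0.189 and 0.0771), and LGKLQ turned to a difference of 0.0363 percentage points.

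TRAJ34 differed by its partners more than by its total. Its end TNKVV took 12.9, 14.1, 15.6, 13.7 and 7.27% of Tumour 1 to 5 and 16.6 to 22.3% of MP reads. With the most abundant CDR3 of each library left out, the difference of -6.88 percentage points shrank to -2.45 (adjusted p = 0.492), and counted by CDR3 the end was more frequent in tumours, by 2.86 percentage points (adjusted p = 0.120). Loops that start with AL and end with TNKVV made up 8.91 to 15.9% of MP reads and 0.154 to 0.947% of tumour reads. Those that start with AM made up 2.99 to 4.80% of MP and at most 0.156% of tumour reads. Those that start with AA made up 6.23 to 11.7% of tumour and 0.0943 to 0.323% of MP reads.

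Ends with large means in tumours did not all pass. NEKIT of TRAJ48 took 2.72, 15.3, 10.2, 14.97 and 0.574% of Tumour 1 to 5 and 0.346 to 1.06% of MP reads, and Tumour 5 fell within the MP range (adjusted p = 0.0693). YNVLY of TRAJ21 took 4.10 to 20.3% in tumours and 2.95 to 4.77% in MP (adjusted p = 0.0781). With each CDR3 counted once and near copies not folded, YNVLY made up 8.66 ± 2.24% of tumour and 3.11 ± 0.199% of MP lists. By that count it passed the threshold (exact permutation test, unadjusted p = 0.00794, adjusted p = 0.0450). By the same count NEKIT made up 2.75 ± 1.13% and 1.68 ± 0.679% (exact permutation test, unadjusted p = 0.0952).

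**Figure D4:**
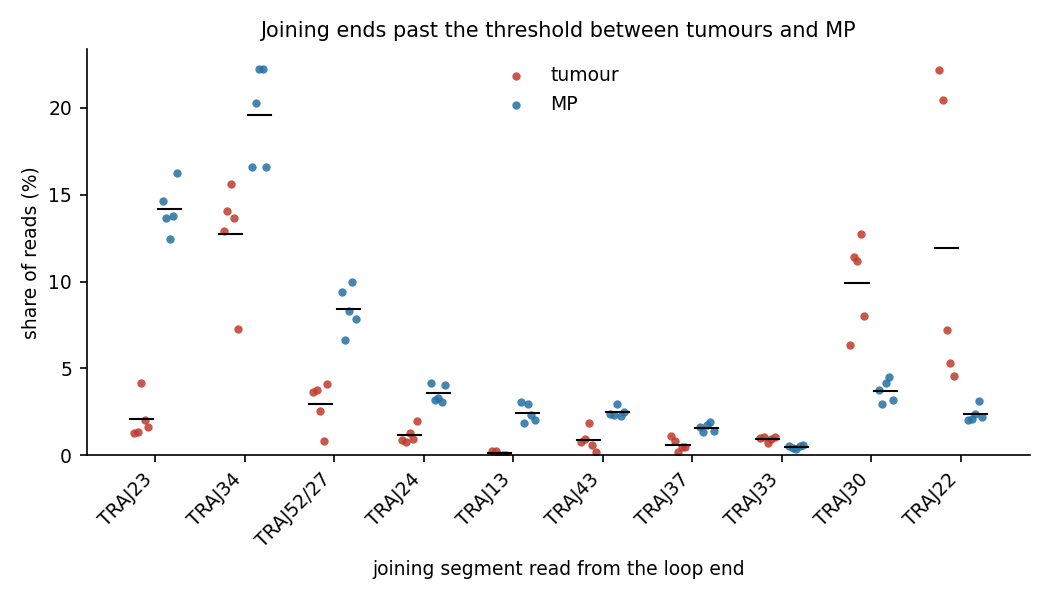
Share of reads (y axis, %) of the 10 joining ends past the threshold, labelled by their segment (x axis, ordered by the difference), with a point for each of 5 tumour and 5 MP libraries and a black line at each group mean. TRAJ23 lies at 12.5 to 16.3% in MP and at or below 4.17% in tumours, and TRAJ22 reaches 22.2% in tumours.

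The starts of the loops, which the variable segment mostly encodes, shifted too. Of 12 starts of 2 residues with a mean share of at least 0.5%, 2 or 16.7% were higher and 4 or 33.3% were lower in Tumour. The start AL took 38.5, 40.9, 42.3, 40.3 and 37.0% of MP 1 to 5 and 9.74, 10.9, 12.1, 10.9 and 10.9% of Tumour 1 to 5 (exact permutation test, adjusted p = 0.0190). Around their mean of 10.9% the tumours had an SD of 0.851. The start AA took 36.6, 56.6, 38.9, 45.4 and 48.0% of Tumour 1 to 5 and 18.9 to 27.1% of MP reads (adjusted p = 0.0190).

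The start VL was rare and also higher in Tumour, at 0.416 to 1.64% against 0.116 to 0.244% in MP, while AP was lower at 1.14 to 1.89% against 3.86 to 6.05% (exact permutation test, adjusted p = 0.0190 for each). AF took 1.28 to 2.58% of MP reads and at most 1.24% of a tumour, in Tumour 2 (adjusted p = 0.0190). AI was lower on average, with groups that overlap (adjusted p = 0.0476), and lost its call in 12 of 15 alternatives, among them the fits without any single library other than Tumour 3 (adjusted p = 0.0635 to 0.105). The start AV was high in Tumour 1 and 3, at 32.3 and 20.8%, and 5.46 to 8.52% in the other tumours, against 6.07 to 7.39% in MP (adjusted p = 0.0833). Without Tumour 1, 3 or 5, VL fell under the minimum mean share and 1 start was higher, and without Tumour 4 there were 4. None of the 6 calls remained without MP 1 and MP 5 together (lowest exact permutation adjusted p = 0.0857), where 3 MP libraries are left and 5 starts had an unadjusted exact p under 0.05.

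Combinations of start and end show where these shifts met. The pairs are a description, listed where either group mean was at least 1%. Loops with AA and SWQLI took 2.84 to 15.6% of tumour reads and 0.0480 to 0.416% of MP reads, and those with AA and AYKVI 5.25 to 11.1% and 0.589 to 1.04%. AM with YNVLY took 2.42 to 14.9% in tumours and 0.340 to 0.518% in MP. In MP, AA with QGKLI took 4.98 to 7.66% and AL with QGKLI 5.40 to 6.67%, against at most 0.536 and 2.20% in a tumour.

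Tumour loops were longer. The read-weighted mean length was 11.35, 11.34, 11.47, 11.61 and 11.47 residues in Tumour 1 to 5 and 10.89, 10.83, 10.86, 10.93 and 10.95 in MP 1 to 5. The difference was 0.554 residues (exact two-sided permutation test, adjusted p = 0.0238 over 3 loop features), with no overlap between the groups. With each CDR3 counted once it was 0.451 residues (adjusted p = 0.0119). Without MP 1 and MP 5 together, 3 against 5 libraries, it was 0.574 residues and missed the threshold (exact permutation test, adjusted p = 0.107).

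Short loops accounted for part of the gap in length. Loops of 8, 9 and 10 residues took 4.79 ± 0.557, 12.1 ± 1.22 and 16.1 ± 1.08% of MP reads and 0.549 ± 0.363, 4.39 ± 1.87 and 8.49 ± 2.58% of tumour reads (SD, n = 5 each). Loops of 11 residues, the length of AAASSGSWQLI, AASASNTNKVV and AASATNAYKVI, took 34.7 to 52.7% of tumour and 27.9 to 34.1% of MP reads. Loops of 13 residues, that of AARPPRYGNEKIT, ranged from 2.76 to 29.2% between tumours and from 6.40 to 9.73% between MP libraries.

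**Figure D5:**
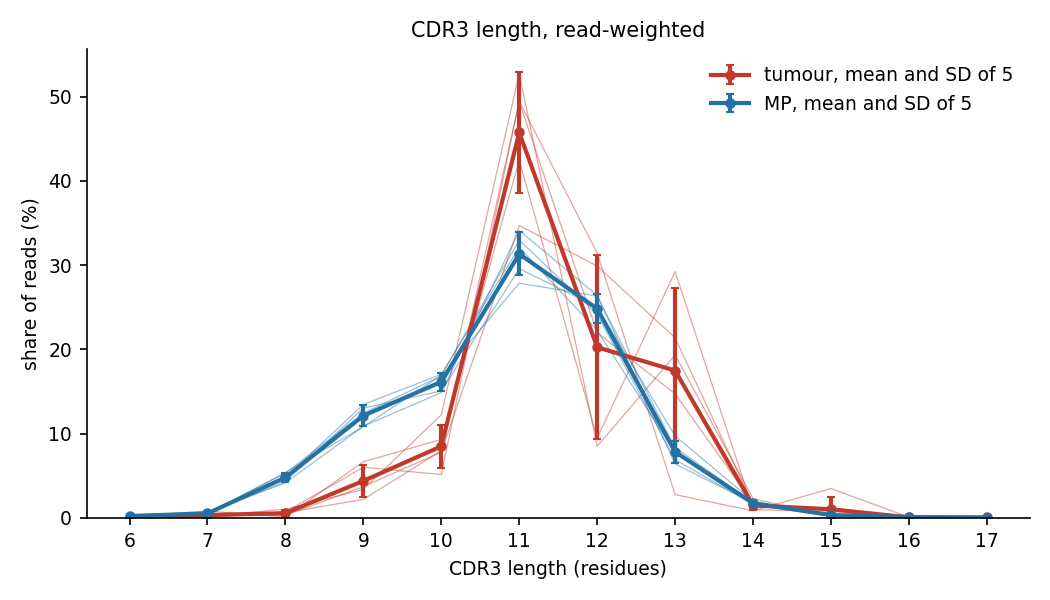
Share of reads (y axis, %) by CDR3 length (x axis, residues); thin lines are single libraries, and points with bars are the mean and SD of 5 tumour or 5 MP libraries. Tumours hold fewer loops of 8 to 10 residues and reach 52.7% at 11 residues, and they vary more between libraries at 12 and 13 residues.

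By read share, neither net charge nor cysteine passed the threshold, and both calls changed with the way of counting or the libraries used. The mean net charge per loop was 0.669, 0.666, 0.714, 0.901 and 0.558 in Tumour 1 to 5 and 0.607 to 0.627 in MP (exact permutation test, adjusted p = 0.151). Without Tumour 5 the difference passed the threshold (adjusted p = 0.0238), and it changed sign when each CDR3 was counted once (-0.0209). Loops that hold a cysteine took 0.550, 0.872, 0.574, 0.197 and 1.15% of the reads of Tumour 1 to 5 and 0.234 to 0.345% of MP reads (exact permutation test, adjusted p = 0.0714). Tumour 4 alone lay below the MP range, and without it the adjusted p was 0.0238. With each CDR3 counted once, cysteine loops were more frequent in tumours, by 1.60 percentage points (exact permutation test, adjusted p = 0.0119). With each CDR3 of at least 10 reads counted once, the difference was 0.742 percentage points. Near copies, a larger part of tumour than of MP lists, were not folded in these counts by CDR3, and their part in the difference was not tested.

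Receptors of other T cells that the sorts could hold were rare. A loop of the form carried by invariant natural killer T cells, which recognise lipids, was listed in no tumour and with 5 reads in MP 1 and 8 in MP 5. Loops of the form of mucosal-associated invariant T cells, which recognise microbial metabolites, had 60 reads in Tumour 2, or 0.00771%, and none in the other tumours. They took 0.00381 to 0.0531% of MP 1, 2, 4 and 5.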

How the data were processed

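Per the labels, CD8+ T cells were sorted by FACS, RNA was extracted in Trizol, and a company, iRepertoire, amplified the alpha chains by arm-PCR, a multiplex PCR, for a Roche sequencing platform. Not given in the sources used here were the aligner, the CDR3 caller and any molecular identifiers. The authors deposited read counts per CDR3 peptide, 1 list per library and without normalization.

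Calls per CDR3 used edgeR 4.0.16 in R 4.3.3 (limma 3.58.1): a robust quasi-likelihood test with total reads as library size, without TMM, and an adjusted p under 0.05. DESeq2 1.42.0 was an alternative. Library values came from python 3.11.15 (numpy 2.4.6, pandas 2.3.3, scipy 1.17.1, matplotlib 3.10.9) and were compared by exact permutation over 252 assignments, with the two-sided p as 2 times the smaller tail. The edgeR step was also run on simulated counts with a capped spread between libraries, which checks the code and not the calls made here. Net charge was the number of K and R less that of D and E.

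Named were the 10 CDR3s of highest mean share in each group among those that passed the filters, the 5 highest called up in Tumour and listed in at least 3 MP libraries, the 5 with the largest smaller group mean, the leader of each library, and every end and start past the threshold. Loops of 15 or more residues are not spelled out. Groups, lists and tests were chosen with earlier results of these data known. The labels do not say that libraries were made together or that equal numbers of Tumour and MP share a mouse, and counts of same-numbered libraries deviated with correlations of -0.0375 to -0.0018, so they were treated as unpaired. No 2 libraries within a group agreed within counting noise, and p-values measure the spread between these libraries. The exception is the index of tumours to MP against Naive, where tumours were held fixed.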

Additional observations from a re-analysis of the deposited data

Results flagged for a closer look

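In 22 of 106 groups of 5 values looked at, 1 library stood far from the other 4 of its group. Chance gives this in about 1 of 20 groups, but the count cannot be read against that rate, since loops chosen as the leader of a single library, and groups with 4 values at 0, stand apart by construction. No cause was tested.

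Among the loops of a single tumour, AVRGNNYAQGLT stood at 14.7% in Tumour 1, AGRPPRYGNEKIT at 4.19% in Tumour 3, ATASSNMGYKLT at 20.8% in Tumour 4 and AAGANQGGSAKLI at 22.6% in Tumour 5. The first and the last of these were also listed in 1 MP library each, at 0.00261% in MP 1 and 0.00161% in MP 5. AVRFGGGYKVV reached 5.88% in Tumour 1 and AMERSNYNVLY 9.47% in Tumour 5, while AASSSNTNKVV was low in Tumour 5, at 0.0588%.

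Against the other tumours, Tumour 2, which had the longest list, held a high share of several loops that MP libraries use. In it ALGASNTNKVV stood at 0.675%, AITGYQNFY at 0.353%, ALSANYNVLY at 0.0465% and AASNTGNYKYV at 0.0338%, and loops with the start AF took 1.24%. Tumour 4 held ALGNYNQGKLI at 0.0143% and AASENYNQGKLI at 0.0179%, and Tumour 3 had 4.17% of its reads in loops with the end QGKLI.

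Among MP libraries, MP 5 listed the tumour leaders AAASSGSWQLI at 0.00716% and AASASNTNKVV at 0.00453%, and MP 3 listed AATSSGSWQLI at 0.0717%. MP 4 stood apart with 3.10% of its reads in the end SWQLI and 0.481% in ALGASNTNKVV.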

How the results depend on the processing

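Entropy, the CDR3s that take 50% of reads and the 3 Morisita-Horn results kept direction and call in every alternative run for them. For single CDR3s, 128 higher and 1100 lower of 1666 tested became 521 and 4670 of 6978 with no filter. A filter of at least 50 reads gave 94 higher and 494 lower of 813 tested. The replicate block, on numbers that do not pair mice, left 57 higher and 265 lower. In it AASATNAYKVI, AASPSNTNKVV, AASAANAYKVI, AASSSNTNKVV, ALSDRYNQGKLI and APSNSGTYQR missed the threshold (edgeR adjusted p = 0.0552 to 0.243) and ALGASNTNKVV passed it as lower (0.0447). Fits without MP 1 and MP 5 together, added after the data were seen, left 68 and 225 of 642 tested. With 1 library left out, 81 to 122 were higher and 572 to 1210 lower, where the number tested ran from 1048 to 1633. The loop length difference without MP 1 and MP 5 was 0.574 residues (exact permutation, adjusted p = 0.107), with 0.513 to 0.582 over single libraries left out. The net charge difference of 0.0869 turned to -0.0209 with each CDR3 counted once, -0.0132 with each CDR3 of at least 10 reads counted once and -0.0135 without the most abundant CDR3 of each library, and lay at 0.0371 to 0.123 with 1 library left out. The cysteine difference was 1.60 and 0.742 percentage points under the first 2 of these, where it passed the threshold (exact permutation, adjusted p = 0.0119 each), and 0.274 to 0.512 with 1 library left out. Near copies were not folded in either count by CDR3. Joining ends past the threshold numbered 0 to 6 higher and 0 to 10 lower with 1 library left out; in fits with 0, the exact permutation test gave 12 ends at an unadjusted p under 0.05. They numbered 0 and 0 without MP 1 and MP 5 together (10 unadjusted), and 3 and 2 were lower under the 2 ways of counting CDR3s. In those, TNKVV turned to 2.86 and 2.26 percentage points and LGKLQ to 0.0363 and 0.312. Loop starts numbered 1 to 4 higher and 3 to 4 lower with 1 library left out, and 0 and 0 without MP 1 and MP 5 together (5 unadjusted, exact permutation). With CDR3s counted once 2 starts were lower; with those of at least 10 reads 1 was higher and 2 lower; without the most abundant CDR3s 4 were higher; and with starts of 3 residues 12 of 30 were lower. The cause of these changes was not tested, beyond the fewer samples of the fits that leave libraries out. The number of cells is unknown, so that depth in reads does not bound the loops missed.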

Other observations

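Naive libraries place some of the shifts between Tumour and MP. The start AL took 30.2 ± 1.68% of Naive reads, against 39.8 ± 2.09% in MP and 10.9 ± 0.851% in tumours (SD, n = 5 each), so that the tumour value was the lowest of the 3 groups. The end QGKLI of TRAJ23 stood at 15.9 ± 1.36% in Naive and 14.2 ± 1.41% in MP, against 2.09 ± 1.20% in tumours. For SWQLI of TRAJ22 the Naive mean was 3.25 ± 0.0959%, above that of MP at 2.35 ± 0.438% and below that of tumours at 11.9 ± 8.64%. The mean length of Naive loops was 11.24 ± 0.0359 residues, between MP at 10.89 ± 0.0513 and tumours at 11.45 ± 0.113. Some other ends and starts had a tumour mean nearer to the Naive than to the MP mean. The end TNKVV had means of 10.3% in Naive, 12.7% in tumours and 19.6% in MP. In the same order, the means of LGKLQ were 1.07, 1.16 and 3.57%. Those of NYQLI, an end called higher in Tumour, were 1.05, 0.947 and 0.489%. The start AP had means of 2.11, 1.64 and 4.67%. Other called classes, like QGKLI, had a tumour mean nearer to the MP than to the Naive mean. In the same order, the end NNAPR had means of 7.48, 0.861 and 2.48%, and TGKLI 3.31, 0.602 and 1.60%. The start AF had 2.80, 0.385 and 1.97%, and AI 6.43, 1.54 and 4.06%. These differences from Naive were not tested here.

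Starts of 3 residues divided the AL and AA loops further. ALG, the start of ALGSSNTNKVV, took 11.2 ± 1.18% of MP and 1.47 ± 1.02% of tumour reads, and ALA took 6.76 ± 1.37% and 0.234 ± 0.165% (SD, n = 5 each; exact permutation test, adjusted p = 0.0170 over 30 starts). AAD, the start of the second most abundant MP loop, took 4.98 ± 1.28% and 0.909 ± 0.608%, while AAA took 0.133 ± 0.0651% of MP and 5.77 ± 4.11% of tumour reads (adjusted p = 0.0170 for each). ALE took 1.64 ± 0.417% of MP and 1.49 ± 1.80% of tumour reads and did not pass (exact permutation test, adjusted p = 1.000).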
